A study of Homo sapiens with 4 samples.

Results

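HNRNPC-bound RNAs of MDA-MB-231 cells, an established triple-negative breast cancer line, were ranked gene by gene from the pooled HNRNPC peak list. The list held 10388 entries at 9107 distinct positions, out of 80166 entries in both peak lists of the series. Each position was counted once, and the number of peaks and their heights were summed over each NCBI gene ID that the list gave. After this step 3935 gene IDs held at least 1 peak, and 163 of the 4098 listed IDs were left with none because all of their positions were assigned to another ID. Peak height is the number of pooled unique tags (sequenced RNA fragments) at the summit, and the heights summed to 147196 tags.

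HNRNPC is an abundant nuclear RNA-binding protein that packages nascent transcripts. It recognizes runs of uridines, which are common in introns and in Alu repeats transcribed in the antisense direction, and is known to influence both splicing and the choice of poly(A) sites. Binding was measured by cross-linking and immunoprecipitation (CLIP), in which ultraviolet light (400 mJ per cm2 at 254 nm) bonds a protein to RNA in living cells before an antibody retrieves it. There were 2 HNRNPC samples, for which the labels give no treatment but the cross-linking, described as irCLIP in the methods and as HITS-CLIP in the name of the list, and the name of the list says that their tags were pooled. As there was 1 list and no input or control list, replicate error could not be given and no test was made. The amount of each RNA in the cells was not measured in these files, so a gene with few or no peaks may simply have been little transcribed, which was not tested. Intervals are 95% Wilson intervals and cover counting error only, and peaks of 1 gene are not independent of each other.

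The tallest peaks of 13 genes were read, all leading or study-named except EPHB2, which is from a gene group below. Peaks in UTRs, wide peaks and some others were left out, so the counts do not stand for all leading genes. Left out were EXT1, HMGA2 and MALAT1, with UUUUU and no GUGUCA, and SEPTIN9, with GUGUCA and no UUUUU, among others. Of the 13, a U run without GUGUCA was present in 6, GUGUCA without a U run in 5, and neither in the other 2, PTPRM and CMIP. Of these 5 with GUGUCA, 3 are shown, because the ends at this hexamer are followed through the genes below. Each is read from the hg38 reference on the strand of the transcript, from 50 bases before the 5′ end of the peak to 26 bases after its 3′ end, with T for U. Capitals mark GTGTCA where it starts within 20 bases of the 3′ end of the peak. No run of 5 U was present up to that end. These were SLC35F3 (chr1:233999488-233999702, plus strand, intron 2, 304 tags), PALM2AKAP2 (chr9:110103803-110104036, plus strand, intron 7, 244 tags) and TRIO (chr5:14301357-14301543, plus strand, intron 7, 85 tags).
SLC35F3: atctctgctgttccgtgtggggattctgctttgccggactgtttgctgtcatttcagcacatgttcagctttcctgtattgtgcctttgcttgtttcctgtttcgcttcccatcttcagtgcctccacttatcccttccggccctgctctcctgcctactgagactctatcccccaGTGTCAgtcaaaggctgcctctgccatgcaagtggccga
PALM2AKAP2: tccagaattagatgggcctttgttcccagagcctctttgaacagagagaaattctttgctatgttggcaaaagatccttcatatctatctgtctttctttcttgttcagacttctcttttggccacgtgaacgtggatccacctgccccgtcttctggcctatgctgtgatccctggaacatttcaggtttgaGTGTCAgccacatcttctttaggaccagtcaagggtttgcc
TRIO: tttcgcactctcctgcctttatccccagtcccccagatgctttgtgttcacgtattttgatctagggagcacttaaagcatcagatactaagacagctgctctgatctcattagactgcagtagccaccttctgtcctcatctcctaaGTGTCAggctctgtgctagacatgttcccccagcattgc

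Across all 9107 positions, UUUUU was present in the peak or the 50 bases before it in 3617 (39.7%, 38.7 to 40.7%), and GUGUCA started within 20 bases of the 3′ end in 3676 (40.4%, 39.4 to 41.4%), both searched on the strand of the peak only. GAUUAC, a stretch that antisense Alu repeats carry, lay inside 1039 peaks (11.4%, 10.8 to 12.1%). A match of these letters is a description of the sequence and not evidence of a binding site.

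Most bound genes carried a single peak. Of the 3935 gene IDs, 2224 (56.5%, 54.96 to 58.1%) had 1 peak, 785 had 2, 371 had 3, 186 had 4 and 369 had at least 5. The median was 1 peak, the mean 2.31 and the highest 76. At the dense end, 105 IDs had at least 10 peaks and together held 19.9% of all positions, and 27 IDs had at least 20 and held 9.004%. The 100 IDs with most peaks held 19.4% of the positions (18.6 to 20.2%). The 100 IDs of greatest summed height held 27.3% of the summed height, and 71 IDs belonged to both sets. The median summed height of a gene was 16 tags (quartiles 8 and 35).

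**Figure D1:**
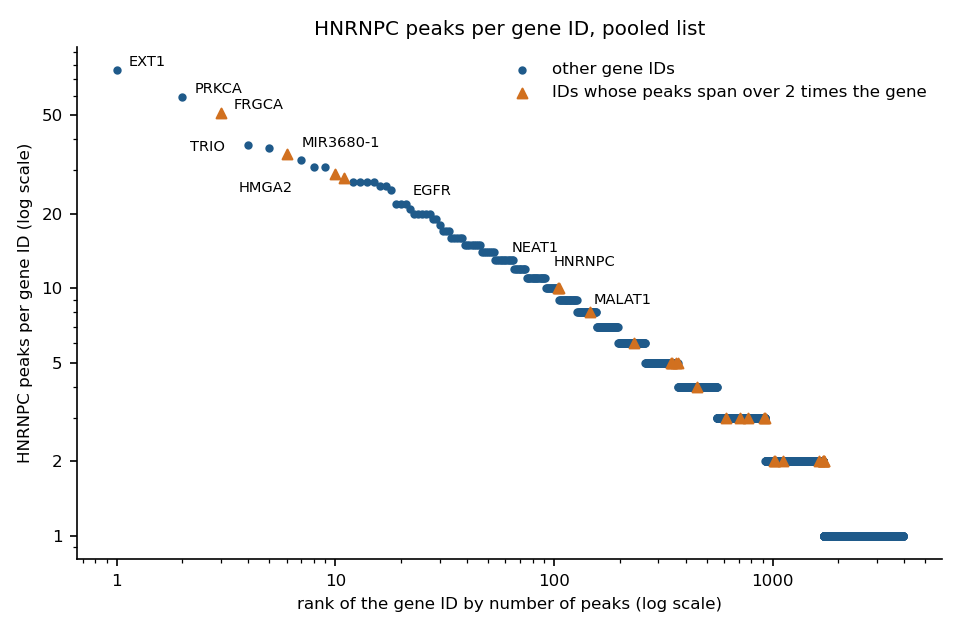
Number of HNRNPC peaks per gene ID (vertical axis, log scale) against the rank of the ID (horizontal axis, log scale), with 1 point per ID and no error bars because there is 1 pooled list. Triangles are the 26 IDs whose peaks span more than 2 times the annotated gene. EXT1 leads with 76 peaks, and the flat line at the right is the 2224 IDs with 1 peak.

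Binding was mostly to protein-coding transcripts. Of 20046 annotated protein-coding genes, 3711 (18.5%) had at least 1 peak and 351 (1.75%) had at least 5, and they held 93.6% of all positions. Of 18303 annotated long non-coding genes, 164 (0.896%) had at least 1 peak and 14 (0.0765%) had at least 5, and they held 5.06% of the positions.

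The gene with most peaks was EXT1, a glycosyltransferase that builds heparan sulfate chains. Its 76 peaks summed to 2253 tags, with heights from 17 to 111 and a median of 23. All 76 lay in its first intron, which is 273 kb long and makes up 88.3% of its intron length, at a median spacing of 1.34 kb. UUUUU was in or before 46 of them, GAUUAC was in 12 and GUGUCA was at the end of 6.

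PRKCA, the alpha form of protein kinase C, was the next (chr17:66302613-66810743, hg38). It had 59 peaks summing to 1469 tags, of which 58 were intronic. Its second intron held 44 of those 58, with 38.1% of the intron length. UUUUU was in or before 34 and GUGUCA was at the end of 7.

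TRIO, a guanine nucleotide exchange factor (chr5:14143342-14510204), had 38 peaks summing to 859 tags. Of its 36 intron peaks, 20 lay in intron 34, which makes up 11.5% of its intron length. PTPRM, a receptor tyrosine phosphatase (chr18:7567316-8406856), had 37 peaks summing to 528 tags, and 29 of 36 intron peaks lay in intron 1, with 24.7% of the intron length. The intron named for each gene, here and below, is the one with most of its intron peaks. That its share of the peaks exceeds its share of the length in PRKCA, TRIO and PTPRM follows in part from this choice.

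Other leading genes also had most peaks in 1 intron, often the one with most of the length. HMGA2, a chromatin protein of embryonic and tumour cells (chr12:65824460-65966291), had 31 peaks summing to 894 tags. All 28 of its intron peaks lay in intron 3, which holds 81.9% of the intron length, and 2 more were in its 3′ UTR. CMIP, an adaptor protein, had 25 of 26 intron peaks in intron 1 (61.8% of the intron length). The receptor tyrosine kinase EGFR had 22 peaks summing to 536 tags, with 20 of 21 intron peaks in intron 1 (67.3%). SLC35F3, a solute carrier, had 24 of 26 in intron 2 (78.2%). NAV2, a cytoskeletal guidance protein, had 17 of 24 in intron 1 (29.8%). By contrast, the peaks of MPRIP, which targets myosin phosphatase, were divided between 17 in introns and 7 in its 3′ UTR, out of 27.

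Over all genes with at least 2 introns in their Ensembl canonical transcript, 7049 intron peaks could be placed. Of these, 2711 (38.5%, 37.3 to 39.6%) were in the first intron, where the first intron made up 28.7% of the intron length of the same genes, weighted by peaks. The longest intron held 57.6% of them and 43.3% of the length.

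**Figure D2:**
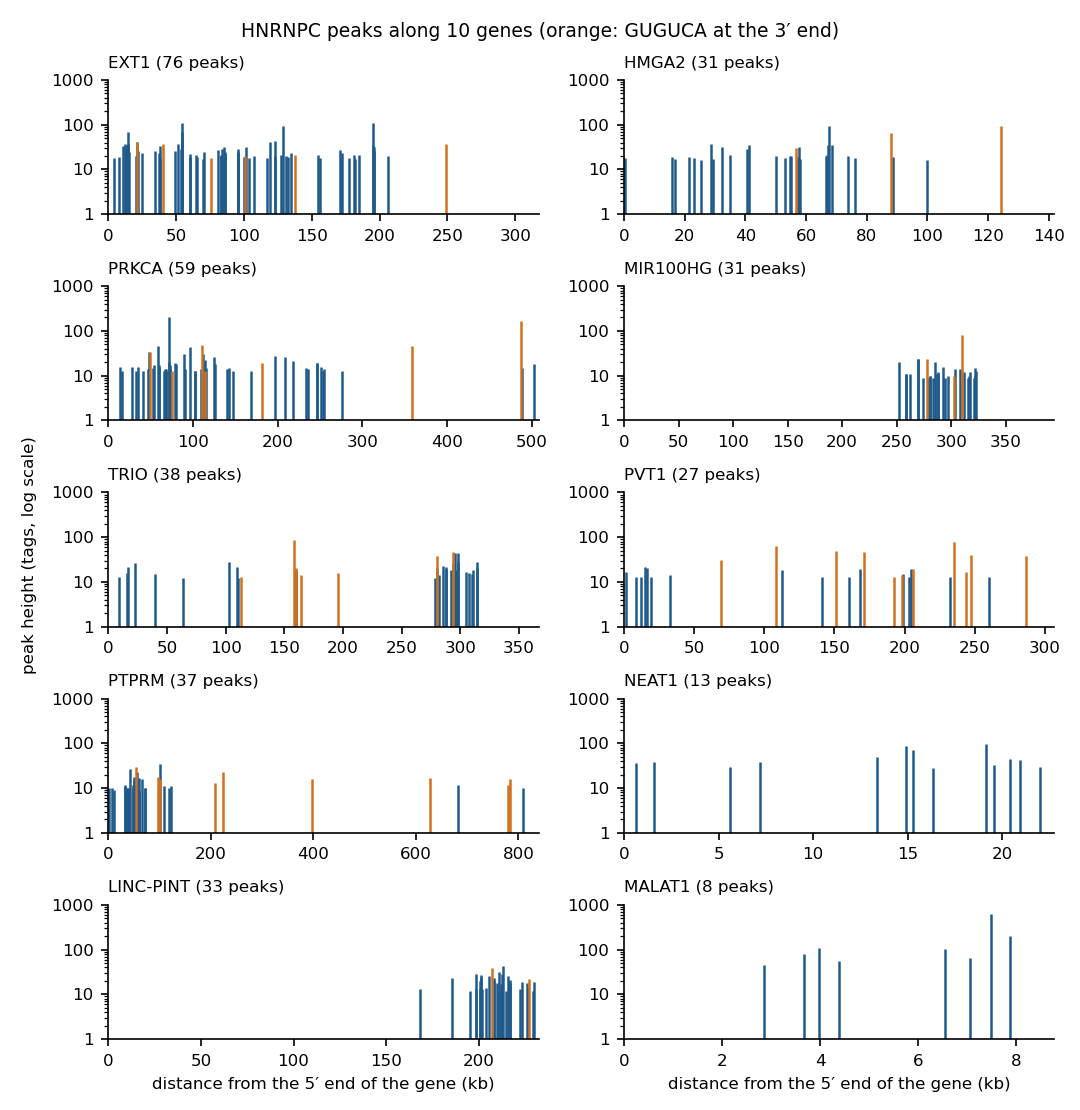
HNRNPC peaks along 10 genes, with the distance of each peak centre from the 5′ end of the annotated gene in kb (horizontal axis) and peak height in tags (vertical axis, log scale). Each vertical line is 1 peak, orange where GUGUCA lies at its 3′ end. Peaks of LINC-PINT and MIR100HG are confined to 1 stretch of the gene, and those of MALAT1 and NEAT1 lie along a short unspliced transcript.

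Among long non-coding RNAs, the leading genes fell into long hosts bound in introns and short nuclear RNAs bound along the transcript. LINC-PINT, a p53-induced RNA (chr7:130877562-131109925), had 33 peaks summing to 667 tags, of which 26 lay in intron 4 of its canonical transcript. MIR100HG, the host of a microRNA cluster, had 31 peaks summing to 468 tags. PVT1, a neighbour of the MYC gene, had 27 peaks summing to 657 tags, and FTX, from the X-inactivation centre, had 21 summing to 341.

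MALAT1, the nuclear speckle RNA (chr11:65497738-65506516), had rank 3 by summed height with 8 peaks. Its summed height was 1282 tags, and from the 5′ end the peaks were 45, 78, 108, 56, 105, 64, 629 and 197 tags high. The 629-tag peak was the tallest of the list and held 49.1% of that sum. NEAT1, the scaffold of paraspeckles (chr11:65422798-65445540), had 13 peaks from 28 to 97 tags high, summing to 627. Neither RNA had GUGUCA at any peak end, and UUUUU was in or before 7 of 8 peaks in MALAT1 and 8 of 13 in NEAT1.

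**Figure D3:**
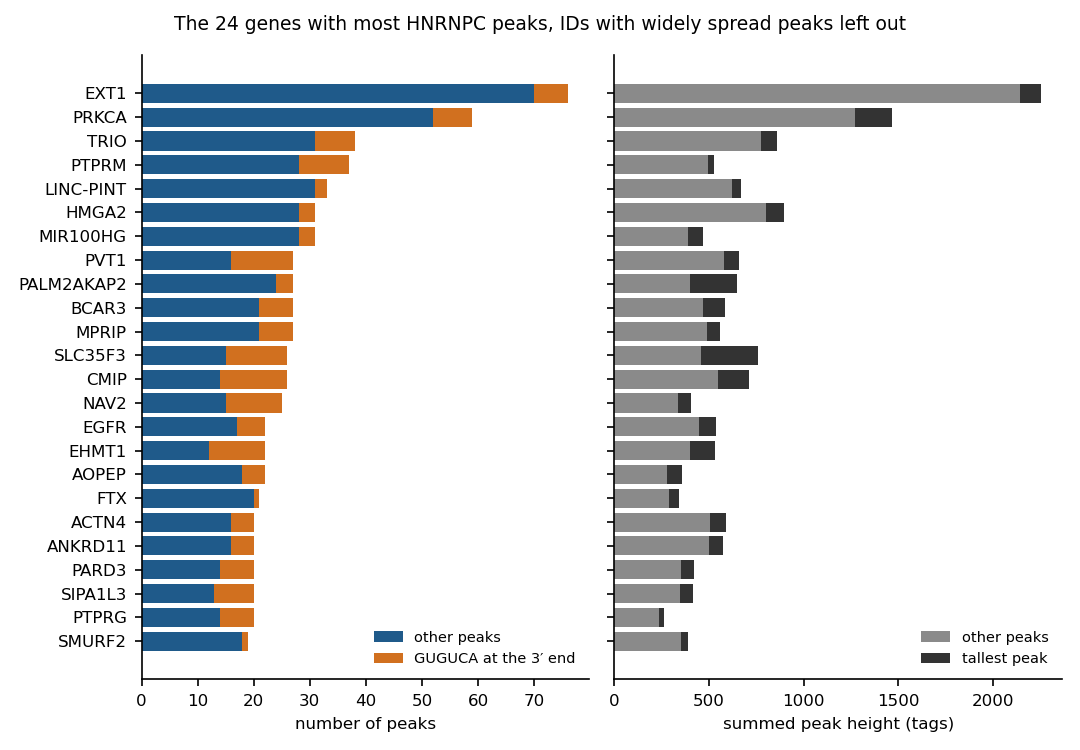
The 24 genes with most HNRNPC peaks, leaving out IDs whose peaks spread beyond the gene. Left, number of peaks, with those that have GUGUCA at the 3′ end in orange; right, summed peak height in tags, with the tallest peak in black. EXT1 (76 peaks, 2253 tags) and PRKCA (59 peaks, 1469 tags) lead on both, and the tallest peak takes the greatest share in SLC35F3 and PALM2AKAP2.

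Ranking by height brought up genes with 1 tall peak as well as genes with many. SLC35F3 summed to 761 tags, of which 304 (39.9%) were in 1 peak, and PALM2AKAP2, an anchor of protein kinase A, to 646, of which 244 (37.8%) were in 1. SEPTIN9, a filament-forming GTPase, reached 684 tags with 17 peaks, the tallest of 186. By contrast, EXT1 had 4.93% of its height in its tallest peak. EZH2, the H3 lysine methyltransferase of Polycomb, was named after its value was seen: it had 2 peaks, and the taller, at 426 tags, was the second tallest of the list. Over the 99 genes with at least 10 peaks, the tallest peak held a median of 17.8% of the summed height (4.93 to 45.3%). The 100 tallest peaks of the list, of at least 83 tags, lay in 87 genes. Of these 100 peaks, 80 were in introns and 50 had GUGUCA at the 3′ end, against 85.5% and 40.4% of all peaks.

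The list gave beside each peak an expected height, which was 1 value per gene ID, from 0.00 in some IDs to 50.1 tags in the mitochondrial large ribosomal RNA (RNR2), with a median of 0.14. The lowest height listed in a gene went with it, from 5 tags in FRGCA (expected 0.01) to 9 in PTPRM (0.27), 17 in EXT1 (1.84), 28 in NEAT1 (6.69) and 45 in MALAT1 (15.8). Across the 99 genes with at least 10 peaks the Spearman correlation of expected and lowest called height was 0.98, both coming from the same tags. It was 0.62 across 3905 gene IDs of any number of peaks with an annotated length and no spread beyond the gene. A peak of 10 tags thus lay above the lowest called height of PTPRM and below those of EXT1 and MALAT1, and summed heights are not a measure of all tags on a gene.

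Peaks were next related to gene length, since a long intron offers more room. Among 3905 gene IDs with an annotated length and no spread beyond the gene, length and number of peaks had a Spearman correlation of 0.30, given as a description across genes, which are not replicates. The 99 genes with at least 10 peaks had a median length of 230.4 kb (22.7 to 839.5 kb), against 49.4 kb for genes with 1 peak. The share of protein-coding genes with a peak rose from 1.18% below 5 kb (0.864 to 1.62%) and 11.6% at 10 to 25 kb to 40.5% at 200 to 400 kb (37.4 to 43.7%), and was 37.5% above 400 kb. Per length, there were 5.66 peaks per Mb of gene below 5 kb, from 10.0 to 10.7 in the classes between 5 and 50 kb, and fewer in each longer class, down to 2.46 above 400 kb.

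**Figure D4:**
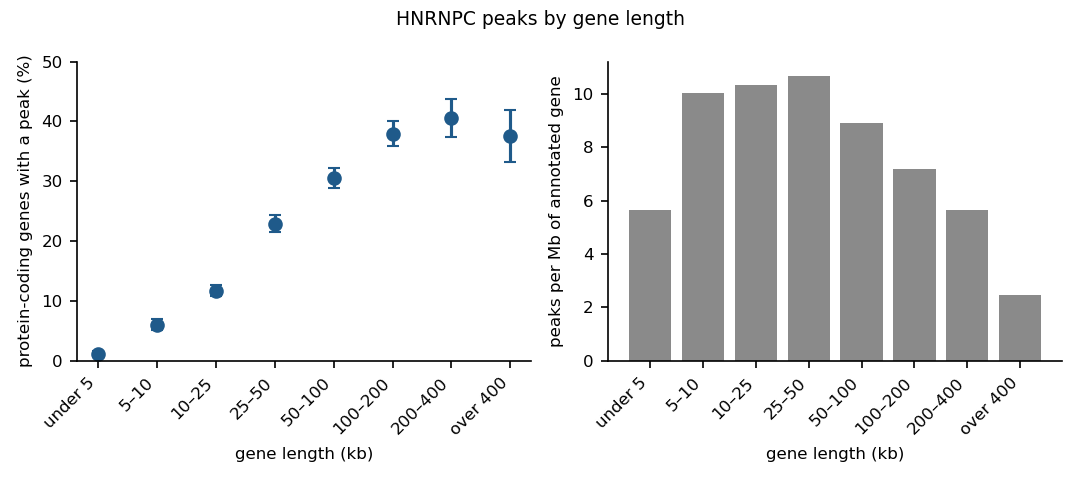
Protein-coding genes by annotated length in kb (horizontal axis). Left, percent with at least 1 HNRNPC peak, with 95% Wilson intervals; right, peaks per Mb of annotated gene, without error bars. The percent rises to 40.5% at 200 to 400 kb, while peaks per Mb are highest, at 10.7, from 25 to 50 kb.

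Density was therefore described separately, as peaks per 10 kb of annotated gene in the 906 genes with at least 3 peaks. The median was 0.423 (quartiles 0.224 and 0.808, range 0.0229 to 17.4). The densest genes were short. Length and density had a Spearman correlation of -0.84. A negative value is in part built in, because density is divided by length and at least 3 peaks were required. ACTB, which encodes beta-actin, led with 6 peaks in 3.45 kb (17.4 per 10 kb). None was intronic, 3 being in its 3′ UTR and 3 in exons that code for protein. MALAT1 followed with 9.11 per 10 kb. RPL13A, a ribosomal protein gene, had 8.51, with 4 peaks that summed to 84 tags. CIRBP, a cold-induced RNA-binding protein, had 7.21, with 3 of 4 peaks in the 3′ UTR. NOP56, a core protein of snoRNPs, had 6.94, and RABGGTB, a subunit of the enzyme that prenylates RAB proteins, had 6.74. GAS5, a snoRNA host, had 5.83, RPL37A 5.72 with 1 of its 3 peaks inside the annotated gene, NEAT1 5.72 and UQCC5, an assembly factor of respiratory complex III, 5.68. Among genes with over 10 peaks, EXT1 (2.39) and HMGA2 (2.19) were denser than PTPRM (0.441).

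The kind of peak varied with the number of peaks in the gene. Introns held 77.8% of the peaks of 1-peak genes (76.0 to 79.5%), 85.2% in genes with 2 to 4 peaks, 89.04% with 5 to 9 and 92.9% with at least 10 (91.6 to 94.1%). The 3′ UTR share went from 8.18% (7.12 to 9.40%) in the first to 1.88% (1.32 to 2.65%) in the last. Coding sequence went from 3.06% to 0.423%. Median peak height was 9 tags in 1-peak genes and 15 in genes with at least 10.

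Peaks ending at GUGUCA were most frequent in genes with few peaks. Their share was 50.5% in 1-peak genes (48.4 to 52.6%), 42.9% with 2 to 4 peaks, 37.3% with 5 to 9 and 27.4% with at least 10 (25.3 to 29.6%). For UUUUU the shares were 38.4%, 39.3%, 42.8% and 40.8% in that order, and for GAUUAC they were 12.6%, 11.4%, 10.9% and 11.1%. The genes with at least 10 peaks also differed among themselves. ADAMTS17 had GUGUCA at 83.3% of its 12 peaks and ZMIZ1 at 81.3% of its 16, while HELLS, NEAT1, SLC4A7, ASXL1, HNRNPC and UBASH3B had it at none of 14, 13, 13, 12, 11 and 10. Apart from NEAT1 and HNRNPC, these genes and ATXN2 were named after their values were seen. UUUUU was in or before 91.7% of the 12 peaks of ATXN2 and 90.9% of the 11 of HNRNPC, against a median of 38.7% over the 99 genes. What the GUGUCA ends stand for was not tested, and counts without them are given under the processing alternatives.

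The rank by gene ID can mislead where the peaks listed for an ID do not lie in that gene. Of the 9107 positions, 8721 (95.8%) had their centre inside the annotated gene of the ID. For 26 IDs the peaks spanned more than 2 times the annotated gene, and those IDs held 232 positions (2.55%), 208 of them outside the gene. Just inside this limit were STK11 (2.01 times), TMEM231 (2.07) and UBA6-DT (2.11), and just outside it BCKDHA (1.84), LINC00472 (1.79) and ARPC1A (1.42). There were 13 such IDs with no peak inside the gene. Over all 26 IDs the median peak height was 6 tags and the median expected height 0.03, against 11 and 0.14 for the other IDs.

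The largest group was on chromosome 21, where 1040 entries stood for 232 positions and 177 positions were listed under several IDs. FRGCA, a long non-coding gene of 0.57 kb, had rank 3 by number with 51 peaks that spanned 8275 kb, none of them inside it. The lens crystallin gene CRYAA had 29 and CBS, a cystathionine synthase, had 28, again with 0 inside. C21orf140 and LOC102723553 had 10 each, also with 0 inside. Whether a peak lay inside was judged against the 1 annotated location used per ID, and any other annotated copy of these genes was not considered. Together these 5 IDs held 128 positions. By peak centre and strand 116 of the 128 lay in 21 other genes, 50 of them in RUNX1, a transcription factor of blood and breast epithelium, 16 in WDR4, 8 in DYRK1A and 8 in PKNOX1. RUNX1 held 14 peaks under its own ID and 64 by centre, which would place it second after EXT1, with a summed height of 620 tags in place of 311.

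Outside chromosome 21, MIR3680-1, a microRNA gene of 0.087 kb on chromosome 16, was given 35 peaks that spanned 6871 kb. By centre and strand 26 of them lay in no gene that could be matched to a gene ID, and 6 lay in XPO6, an export receptor. The ubiquitin ligase gene RNF4 had 8 peaks, 6 of which lay in FAM193A. ELAVL1, which encodes the U-rich-sequence-binding protein HuR, had 6 peaks, 5 inside the gene and 1 in CD320, so that its span was 7.24 times the gene. UBA6-DT had 5 peaks with 4 inside, and RABL6 5 with 1 inside and 3 in TRAF2. SPPL2B had 5 with 2 inside and 3 in OAZ1. For 15 of the 26 the span was between 2 and 10 times the gene, and for 7 it was over 100 times.

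Gene groups were described by the percent of members with at least 1 peak. It was set beside the percent among annotated genes of the same length classes, because this percent differed between length classes. For protein-coding genes as a whole it was 18.5%. Of 34 groups, the Wilson interval of 16 lay wholly above the percent of the same lengths, that of 1 below it, and that of the others covered it. The groups were chosen with earlier results of these data known and members of a group are not replicates. Where an interval lies is thus a description and not a test. The amount of RNA, which can also differ between groups, was not available here.

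Among genes for RNA-binding and RNA-processing proteins, 4 of 6 groups had an interval above the percent of the same lengths, and core spliceosome proteins and helicases did not. Of 24 hnRNP genes, 13 had a peak (54.2%, 35.1 to 72.1%, against 14.4% at the same lengths). HNRNPC led with 11 peaks, 10 of them in introns and 190 tags in all. HNRNPA2B1 had 4 summing to 81 tags, and HNRNPR 4 summing to 45. SR splicing factors had 7 of 14 bound (50% against 10.6%), with SRSF1 at 4 peaks, SRSF3 at 3 and TRA2A at 3.

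Other splicing regulators and proteins that read U-rich sequence had the highest share, 21 of 31 (67.7%, 50.1 to 81.4%, against 24.8%). They included RBM39 with 8 peaks, ELAVL1 with the 6 described above, and MBNL1, a muscleblind splicing factor, with 6. Core spliceosome proteins had 9 of 40 (22.5%, 12.3 to 37.5%, against 14.5%), with 3 peaks in SNRNP70 and 2 in SF3B3. The cleavage and polyadenylation factors, which cut and tail pre-mRNA, had 9 of 20 (45% against 19.1%). SYMPK, their scaffold, had 7 peaks, and CPSF4 and CPSF6 had 2 each. DEAD-box and DEAH-box helicases had 14 of 54 (25.9%, 16.1 to 38.9%, against 19.9%), with 4 peaks in both DDX10 and DDX17.

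Chromatin and nuclear genes followed. Histone methyltransferases and demethylases had 28 of 56 bound (50%, 37.3 to 62.7%, against 25.9%), and 4 had at least 5 peaks (7.14%, against 1.75% of all coding genes). EHMT1, an H3 lysine methyltransferase, had 22 peaks summing to 534 tags. NSD2 had 13 summing to 331, and DOT1L 8 summing to 247. Chromatin remodellers had 17 of 33 (51.5% against 30.8%), with CHD2 at 5 peaks and EP400 at 4.

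Nucleoporins, which form the nuclear pore, had 17 of 31 (54.8% against 26.9%), with 8 peaks in NUP98 and 7 in NUP62. Genes of homologous recombination and the Fanconi anaemia pathway had 18 of 32 (56.3% against 27.9%), with 8 peaks each in FANCA and RAD51B. Mediator subunits had 11 of 33 (33.3%, 19.8 to 50.4%, against 19.02%), a lower limit only just above, with 6 in MED27 and 6 in MED13L. ZNF zinc finger genes had 97 of 509 (19.1%, 15.9 to 22.7%), close to the 17.97% of the same lengths. ZNF83 led them with 13 peaks.

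Among genes for cytoplasmic machinery the groups diverged. Translation initiation factors had 17 of 42 (40.5% against 15.99%), with EIF4G3 at 12 peaks. Cytosolic ribosomal proteins, which are very short genes, had 25 of 88 (28.4%, 20.04 to 38.6%, against 5.07%), led by RPL13A with 4 peaks and RPL37A with 3. Mitochondrial ribosomal proteins had 8 of 77 (10.4% against 10.5%) and nuclear-encoded subunits of oxidative phosphorylation had 7 of 75 (9.33% against 10.2%). MRPS6 and NDUFA10 led these with 3 peaks each. Glycolysis enzymes had 8 of 17 (47.1% against 15.9%), with PFKP, a phosphofructokinase, at 11 peaks and ENO1 at 3. Proteasome subunits had 10 of 39 (25.6%, 14.6 to 41.1%, against 14.2%), each with 1 peak, and their lower limit lay only just above the percent of the same lengths.

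For the signalling, cytoskeleton and adhesion groups the interval covered the percent of the same lengths. Receptor tyrosine kinases had 13 of 53 (24.5% against 28.5%), with EGFR at 22 peaks, EPHB2 at 7 and AXL at 7. Integrins had 6 of 27 (22.2% against 28.5%), with ITGB1, the common beta chain, at 10. Kinesins had 10 of 39 (25.6% against 27.1%), with 4 in KIF18B. RAB GTPases had 13 of 63 (20.6% against 19.6%) with at most 2 peaks each, and ubiquitin-specific proteases had 17 of 51 (33.3% against 27.9%) with at most 3 each.

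**Figure D5:**
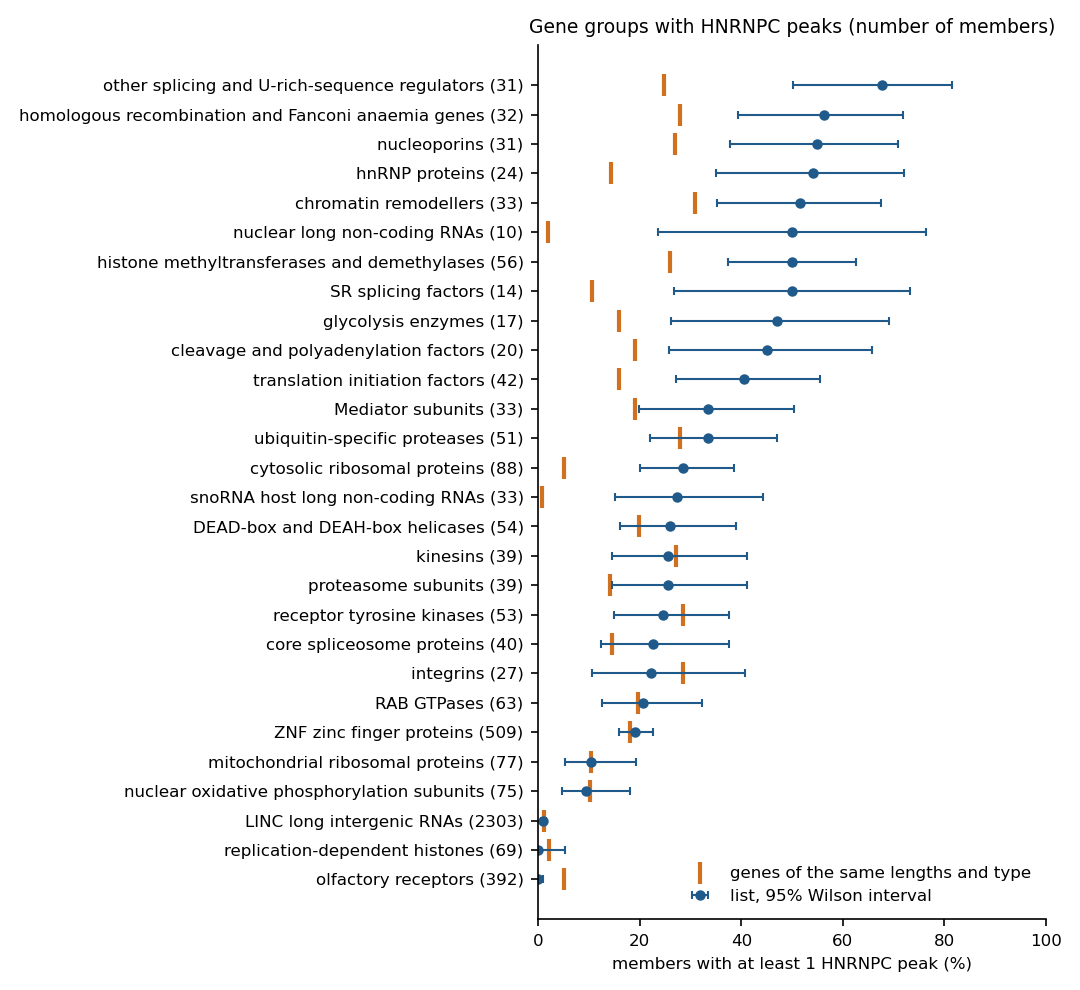
Percent of the members of each gene group described here with at least 1 HNRNPC peak (points, with 95% Wilson intervals) and percent among annotated genes of the same type and length classes (orange bars), with the number of members after each name. Splicing regulators are highest at 67.7%, and no olfactory receptor or replication-dependent histone gene has a peak.

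Of the protein-coding groups, 2 had no peaks. None of 392 olfactory receptor genes was bound (upper Wilson limit 0.970%, against 5.04% at the same lengths) and none of 69 replication-dependent histone genes (upper limit 5.27%, against 2.02%). Of the non-coding groups, 5 of 10 nuclear long non-coding RNAs had a peak (50% against 1.85%), led by PVT1, NEAT1 and MALAT1. Long non-coding hosts of snoRNAs had 9 of 33 (27.3% against 0.797%), with SNHG17 at 6 peaks, ZFAS1 at 4 and GAS5 at 3. LINC genes had 22 of 2303 (0.955% against 1.21%), with LINC00472 at 5 peaks, LINC00673 at 3 and LINC02762 at 3.

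Markers were used to check the cell label, as far as peaks can show expression. Of 10 genes known to be expressed in MDA-MB-231 cells, 6 had peaks: EGFR with 22, ITGB1 with 10, AXL with 7, CD44 with 3, VIM with 2 and CAV1 with 1. KRT8, KRT18, ANXA1 and FOSL1 had none. The share of the 10 with a peak, 60% (31.3 to 83.2%), compares with 19.998% at the same lengths. None of 6 luminal breast markers, 5 blood markers or 5 hepatocyte markers had a peak, but the upper Wilson limits of 39.03%, 43.4% and 43.4% covered the 19.5%, 17.4% and 12.9% of the same lengths, so these zeros do not separate the cell types. Of 5 neuronal markers, SYT1 had 1 peak of 9 tags (20% bound, 3.62 to 62.4%, against 33.2% at the same lengths).

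Genes that the study used as baits, reporters or targets had from 0 to 11 peaks. PDLIM5, an actin-associated protein, had 5 peaks, 4 in introns and 1 in coding sequence, summing to 48 tags. TXNRD1, a thioredoxin reductase, had 4 summing to 39. PABPC4, the poly(A)-binding protein, had 1 peak of 9 tags and PGK1, a glycolysis enzyme, also had 1 of 9 tags, both in introns. KAT14 had none. HNRNPC, the target of the antibody, had 11 peaks in its own transcript, rank 75 by number, with UUUUU in or before 10 of them. For PDLIM5, the paper shows HNRNPC binding sites from CLIP in the 3′ UTR. The paper defined binding by joining peaks of several CLIP experiments with an earlier published data set, which was not used here.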

How the data were processed

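HNRNPC CLIP was described from the authors' pooled peak list, in which the deposited signal of each peak is its height in unique tags, not scaled to depth. Per the methods and labels, the authors collapsed reads by molecular identifier (UMI-tools), trimmed them (cutadapt), aligned them to hg38 (BWA 0.7.17), removed duplicates and called peaks by valley seeking in CTK with correction for multiple tests. Some peaks in the list had a listed p-value above 0.05, and all were counted. With peaks at or below 0.05 only, 3781 gene IDs held a peak in place of 3935. That both samples were pooled is read from the name of the list, and the expected height per gene from its entries. Library depths were not used here.

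Positions listed under several IDs (539) went to the ID whose RefSeq gene held the peak centre, then to the lowest p-value, then to the lowest ID. IDs were named for 4090 of 4098, and 1 annotated location was used per ID. Features came from GENCODE 44, with UTRs from protein-coding transcripts and priority to 3′ UTR, coding sequence, 5′ UTR, non-coding exon and intron. Chromosome names and lengths were checked, and 0 peaks ran past an end. bedtools 2.31.1, pandas 2.3.3 and scipy 1.17.1 were used, and the counting steps were tested on simulated data. Members and gene lists were chosen with earlier results of these data known. Named were the 10 IDs leading by peaks, by summed height and by density, 5 long non-coding genes, 10 IDs with peaks spread beyond the gene, up to 3 members a list, and the genes the study named. BCAR3, PALM2AKAP2, NAV2 and MPRIP were added after their values were seen. Alternatives covered p-value, height, multiple IDs, joined peaks, GENCODE assignment, GUGUCA ends and the span limit. The PABPC4 list was not used, and 1 gene group and some peak sequences are not reported here.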

Additional observations from a re-analysis of the deposited data

How the results depend on the processing

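With 1 pooled list, no replicate could be left out. No paired analysis was possible because the list is named as a pool of both samples and no result comes from a test. Counts below moved by over 1.5 times, and percentages, medians and correlations moved beyond the 95% interval of the reported value. The other values stayed within those limits. For the share of summed height that interval treats each tag as independent and is very narrow, so small moves of that share carry little meaning. With peaks at a p-value of at most 0.001, 59 genes had at least 10 peaks, 61.9% of bound genes had 1 peak, 14.9% of protein-coding genes had a peak, the 100 leading genes held 20.5% of peaks and 28.6% of height, median density was 0.354 per 10 kb and 16 IDs spread beyond the gene. At most 0.05 gave 17.8% of protein-coding genes and 27.5% of height. With peaks at or above the median height, 2161 genes had a peak and 64 had at least 10, 59.97% had 1 peak, 10.2% of protein-coding genes had a peak, the 100 leading genes held 28.8% of peaks and 33.7% of height, median density was 0.554, length and peaks had a correlation of 0.22 and 9 IDs spread beyond the gene. Without peaks that end at GUGUCA, 2534 genes had a peak and 58 at least 10, 61.4% had 1 peak, 11.9% of protein-coding genes had a peak, the 100 leading genes held 25.3% of peaks and 35.5% of height, and the correlation with length was 0.22. Every listed entry under its own ID gave 24.8% of peaks, 29.4% of height and 57 spread IDs. Leaving out positions under several IDs gave 28.1% of height, 17.8% of protein-coding genes and 14 spread IDs. The height share was 26.4% with neighbouring peaks (under 100 nt apart) joined, 27.7% by the GENCODE gene at the peak centre and 27.5% by the ID of lowest p-value, an alternative chosen after seeing the data. A span limit of 5 times the gene left 13 spread IDs. Of the 10 leading IDs that did not spread beyond the gene, 7 to 9 remained under each alternative. The 16 gene groups above their length classes all stayed above them, except 1 with peaks at or above the median height, and 13 to 16 kept an interval wholly above. Among single values, 26 of 306 list percentages and 162 of 1008 peak counts of named genes moved. Where a cause is not plain from the alternative itself, fewer peaks being counted, it was not tested. Depth limits the list in a way that could not be measured: 1-peak genes rest on a median of 9 tags, and the absence of a peak is not the absence of binding.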
